A study of Mus musculus and Homo sapiens with 180 samples.

Results

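HuDEP-2 cells are an immortalised line of human erythroid progenitors derived from cord blood, and they mature towards red cells when the medium is changed. The comparison described here is that maturation step in cells that had first been kept in DMSO, the solvent used as the control for the DOT1L inhibitor SGC0946. It rests on 6 of the 180 samples of the series, chosen by their labels and not by any measured value: 3 libraries labelled HUDEP-2 - DMSO Differentation and 3 labelled HUDEP-2 - DMSO Undifferentiated. All 6 come from the same line, and the labels give 7 days of pretreatment for each. Undifferentiated cells were grown in an expansion medium with dexamethasone, doxycycline, stem cell factor (SCF) and erythropoietin (EPO). Differentiated cells were moved to a medium with serum, insulin, transferrin, heparin, EPO, doxycycline, interleukin-3 and a lower amount of SCF, and no dexamethasone is listed for it. Several hormones and cytokines thus changed at once, and their parts in a result cannot be told apart. The labels give 72 h for all libraries, the undifferentiated ones included, whereas the legend of the study gives day 2 of differentiation for the RNA. A further 6 libraries, differentiated and undifferentiated after SGC0946, entered the same statistical model and are used only for the comparison at the end.

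Red cell maturation is driven by EPO signalling and by the transcription factors GATA1, TAL1 and KLF1. Progenitors express GATA2 and the SCF receptor KIT, and both are lost as GATA1 takes over their regulatory sites. The maturing cell fills with haemoglobin, for which globin chains, haem and iron have to be made together. It builds a spectrin skeleton tied to the membrane by band 3 (SLC4A1) and the glycophorins, stops making ribosomes and finally clears its organelles and nucleus. HuDEP-2 cells make mainly adult haemoglobin, so the globin genes HBB, HBA1 and HBA2 are the products to follow.

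The 6 libraries held 8154178 to 13681475 counts on genes, so that 3 counts, taken as the smallest countable amount, correspond to 0.219 to 0.368 CPM, the unit in which each library is scaled to the same total. Between 13642 and 14418 genes had a count. The mitochondrial genome took 2.83% to 3.72% of counts and cytosolic ribosomal protein genes 16.9% to 18.5%, with overlapping ranges in the 2 groups. The cells carried the erythroid identity that their label gives before differentiation: HBB alone took 1.71% to 2.28% of counts in undifferentiated cells, and all 11 erythroid markers of the fixed list were above the filter in each of the 6 libraries. Markers of lymphocytes summed to at most 0.639 CPM, with 9 of 12 at 0 in all 6 libraries, and those of granulocytes and monocytes to at most 4.30 CPM, with MPO and ELANE at 0. Values below are CPM after TMM scaling, given for replicates 1, 2 and 3 in that order. A value after ± is the SD over 3 libraries for CPM and the standard error for a log2 difference, which is always differentiated minus undifferentiated. Adjusted p is the Benjamini-Hochberg value of edgeR's quasi-likelihood test over all 9848 genes tested, and a gene is said to have risen or fallen where it is under 0.05. Nothing states that the 3 replicates were separate cultures, so the test measures the spread between these libraries, which may be technical. The amount of RNA in a cell was not measured, and in a bulk sample fewer cells of a type and less RNA per cell cannot be told apart.

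Differentiation changed a broad set of genes, with rises in most haemoglobin, haem and membrane genes tested and deep falls in GATA2, HHEX, RHEX and PKM. Of 9848 genes tested, 1548 (15.7%) changed, 800 (8.12%) upwards and 748 (7.6%) downwards. A change of more than 1 on the log2 scale was present in 533 of them (5.41%), 247 higher (2.51%) and 286 lower (2.9%). The groups of 3 did not overlap for 3263 genes (33.1%). The median log2 difference of all genes was 0.00 after TMM scaling, but −0.12 when libraries were scaled by their totals alone, and the calls then split into 511 higher and 1234 lower. Libraries with the same replicate number deviated together, and with the number as a block 3622 genes (36.8%) passed, 1832 higher (18.6%) and 1790 lower (18.2%). All 1548 genes were among these with an unchanged direction. These shares of all genes, without and with the block, are the background for the list counts below. Calls below, and the runs that left out single libraries, come from the fit without the block unless it is named. That fit does not use the shared deviations, so genes that did not pass in it may pass with the block.

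**Figure D1:**
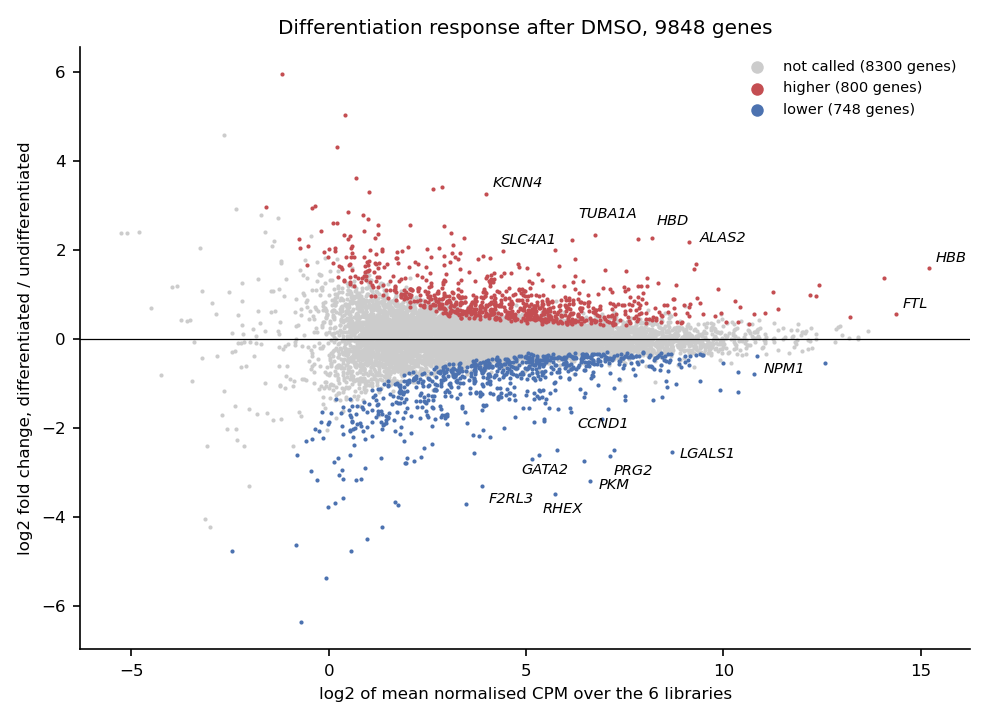
Log2 difference between differentiated and undifferentiated cells (vertical axis) against the log2 of the mean CPM over the 6 libraries (horizontal axis) for 9847 of the 9848 genes tested. Coloured points passed the test, 800 above and 748 below 0, and the labelled genes HBB, ALAS2 and SLC4A1 lie above 0 whereas GATA2 and PKM lie below it.

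The sequence before the transcription start is shown for 3 of the genes with the largest changes, 2 that rose and 1 that fell. They were picked individually and not by a rule, so they do not show how common a match is among such genes. The ranking covered genes past the test with at least 10 CPM on average and groups that did not overlap. In it ALAS2, the erythroid form of the first enzyme of haem synthesis, and HBD, the delta globin chain, were among the 10 largest rises. GATA2, the progenitor factor, was among the 10 largest falls. Erythroid promoters are known for binding sites of GATA1 and, at CACCC-type elements, of KLF1. The 200 bases before the annotated canonical start (GENCODE, build GRCh38) are shown for these 3 genes, read in the direction of the gene. Capitals mark matches to 2 motifs on either strand, the GATA motif (AGATAA or TGATAA) and a CACCC-type motif (CCNCNCCC), and overlapping matches run together.
ALAS2, chrX:55030978-55031177, minus strand: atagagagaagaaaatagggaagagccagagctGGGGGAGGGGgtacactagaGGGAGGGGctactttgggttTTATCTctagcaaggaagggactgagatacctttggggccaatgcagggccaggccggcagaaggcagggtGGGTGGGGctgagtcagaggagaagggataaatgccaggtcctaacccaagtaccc
HBD, chr11:5234484-5234683, minus strand: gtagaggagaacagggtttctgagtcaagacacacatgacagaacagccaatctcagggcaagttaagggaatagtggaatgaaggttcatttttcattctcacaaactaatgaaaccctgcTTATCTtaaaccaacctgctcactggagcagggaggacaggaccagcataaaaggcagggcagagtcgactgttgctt
GATA2, chr3:128493202-128493401, minus strand: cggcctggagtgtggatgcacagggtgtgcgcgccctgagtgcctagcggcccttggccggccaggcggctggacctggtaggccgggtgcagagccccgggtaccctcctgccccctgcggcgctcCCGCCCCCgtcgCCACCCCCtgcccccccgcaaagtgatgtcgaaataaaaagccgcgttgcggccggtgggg
The ALAS2 window held 1 GATA match, 127 to 122 bases before the start, and 4 CACCC-type matches. HBD had 1 GATA match at 78 to 73 bases and 0 CACCC-type matches, and GATA2 had 0 and 2. A GATA match was present in 7.86% of 19937 such windows of protein-coding genes, in 4.45% of the 9077 windows of tested genes, in 9.95% of the 201 windows of genes that rose by more than 1 and in 4.78% of the 272 windows of genes that fell by more than 1. For the CACCC-type motif the shares were 63.8%, 70.4%, 75.1% and 80.9%. Of the fixed lists, 5 of 18 membrane genes (27.8%), 3 of 11 globin genes (27.3%) and 2 of 16 haem genes (12.5%) held a GATA match. These are counts of letters in a window, without a test, and binding was not measured.

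Globin RNA rose from 3.41% ± 0.211 to 8.80% ± 0.620 of all counts, and the groups did not overlap. Of the 11 genes of the globin list, 9 rose and the median log2 difference was 1.59, against 0.00 for all genes, where 8.12% rose. HBB (chr11:5225464-5229395, minus strand), the beta chain of adult haemoglobin, was at 21702, 15882 and 19661 CPM before and 65045, 47194 and 60219 CPM after differentiation. The increase was 3.01-fold (log2 1.59 ± 0.17, adjusted p = 1.04e-05), and replicate 2 was the lowest library of both groups. HBA2 (chr16:172876-173710, plus strand), an alpha chain, went from 7564, 9862 and 11169 CPM to 19557, 25529.9 and 29106 CPM, or 2.59-fold (log2 1.38 ± 0.21, adjusted p = 0.000287). Here replicate 1 was the lowest in both groups. The neighbouring alpha gene HBA1 went from 3096, 3219 and 3634 CPM to 7313, 7215 and 8397 CPM, a 2.30-fold rise (log2 1.20 ± 0.13, adjusted p = 1.04e-05). HBA1 and HBA2 are nearly identical, as are the gamma genes HBG1 and HBG2, so the split of reads within each pair is uncertain.

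The globin with the largest rise among those with at least 10 CPM was HBD, the minor adult delta chain, at 105, 85.0 and 112 CPM and then 518, 403 and 541 CPM (4.85-fold, log2 2.28 ± 0.16, adjusted p = 1.4e-07). The foetal gamma chains started low and rose as well. HBG1 was at 33.8, 21.7 and 27.5 CPM and then at 97.9, 76.1 and 83.8 CPM (log2 1.64 ± 0.18, adjusted p = 1.21e-05). HBG2 was at 35.8, 31.8 and 34.7 CPM and then at 149, 96.4 and 109 CPM (log2 1.79 ± 0.20, adjusted p = 1.23e-05). The embryonic zeta chain HBZ, at 2.702 ± 0.737 CPM before and 14.4 ± 4.27 CPM after, rose by log2 2.39 ± 0.28 (adjusted p = 2.5e-05). HBM, an alpha-like gene, went from 219, 299 and 388 CPM to 699, 912 and 1282 CPM (log2 1.67 ± 0.28, adjusted p = 0.000668). AHSP, the chaperone that holds free alpha chains, rose less, from 1672, 1792 and 1688 CPM to 2526, 2721 and 2488 CPM (log2 0.59 ± 0.11, adjusted p = 0.00158). Of the remaining members, HBE1 (log2 0.67 ± 0.51, adjusted p = 0.415) and HBQ1 (log2 0.35 ± 0.20, adjusted p = 0.262) did not pass. HBQ1 was higher in each of the 3 pairs of replicate numbers and passed with the replicate block (adjusted p = 7.92e-08).

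**Figure D2:**
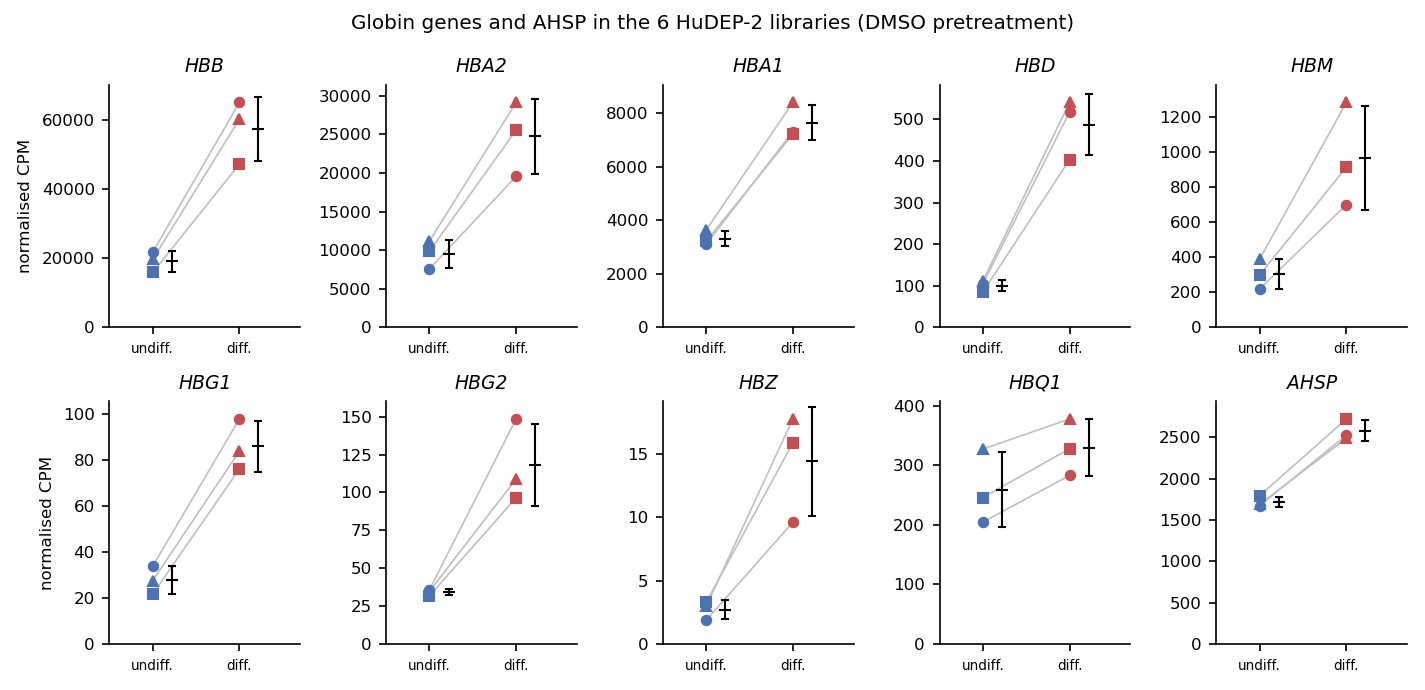
CPM of 10 globin and globin chaperone genes (vertical axes, each panel on its own scale) in undifferentiated and differentiated DMSO cells. Circles, squares and triangles are replicates 1, 2 and 3, grey lines join the same number, and bars give the mean ± SD. All lines slope upwards, and the groups overlap only for HBQ1, from 259 ± 62.4 to 329.7 ± 47.5 CPM.

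Most of the haem pathway rose. Of 16 genes on the list, 14 passed the filter and 10 rose (71.4% of those tested, against 8.12% of all genes). The median log2 difference was 0.64. ALAS2 (chrX:55009055-55030977, minus strand), whose promoter is shown above, went from 164, 239.6 and 208 CPM to 705, 1084 and 959 CPM, 4.49-fold (log2 2.17 ± 0.21, adjusted p = 3.36e-06). Replicate 1 was the lowest library of both groups, and the groups lay far apart. FECH, ferrochelatase, which inserts iron into the ring in the last step, was at 82.8, 104 and 97.9 CPM and then at 198, 201 and 192 CPM (log2 1.05 ± 0.12, adjusted p = 1.48e-05). Between these ends, ALAD (log2 0.76 ± 0.20), UROD (log2 0.68 ± 0.11), CPOX (log2 0.60 ± 0.14) and PPOX (log2 0.51 ± 0.12) rose. UROS (log2 0.52 ± 0.23, adjusted p = 0.142) passed with the replicate block alone (adjusted p = 6.41e-14). The housekeeping enzyme ALAS1 rose by log2 0.49 ± 0.13.

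Of 3 mitochondrial transporters tested on the haem list, 2 rose. SLC25A38, the glycine carrier of haem synthesis, rose from 63.2 ± 3.80 to 102 ± 2.703 CPM (log2 0.69 ± 0.10, adjusted p = 0.000168) and SLC25A39 from 588 ± 141 to 1274 ± 247 CPM (log2 1.12 ± 0.21, adjusted p = 0.00176), while ABCB10 had log2 0.33 ± 0.18 and did not pass (adjusted p = 0.238). BLVRB, biliverdin reductase B, was at 2463, 4074 and 3986 CPM and then at 4811, 7967 and 7895 CPM (log2 0.97 ± 0.26, adjusted p = 0.0191), with replicate 1 well below the others in both groups. The calls of BLVRB and ALAD were each lost on leaving out 1 of 3 libraries (undifferentiated replicate 1, differentiated replicate 2 or 3), with adjusted p up to 0.0863 and 0.0817. With the replicate block on all libraries both passed (adjusted p = 6.9e-35 and 1.19e-17).

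Iron uptake and storage rose in part: 5 of 16 genes rose (31.25%, against 8.12% of all genes), with a median of 0.29. With the replicate block 8 rose and 1 fell, where 18.6% and 18.2% of all genes did. SLC25A37, mitoferrin-1, which brings iron into the mitochondrion, stood apart, from 331, 290.5 and 300.5 CPM to 815, 935 and 977 CPM (2.96-fold, log2 1.56 ± 0.11, adjusted p = 1.82e-07). The transferrin receptor TFRC went from 618, 573 and 557 CPM to 873, 875 and 814 CPM (log2 0.55 ± 0.10, adjusted p = 0.00135), and TFR2, which binds transferrin and the EPO receptor, from 72.5, 92.5 and 99.5 CPM to 123, 163 and 158 CPM (log2 0.75 ± 0.16, adjusted p = 0.00477). FTL, the ferritin light chain, rose from 17303 ± 855 to 25391 ± 1905 CPM (log2 0.55 ± 0.12, adjusted p = 0.00509). NCOA4, the receptor for the breakdown of ferritin, rose by log2 0.45 ± 0.14 (adjusted p = 0.0417), a call lost on leaving out any 1 of 5 libraries, all but differentiated replicate 3 (adjusted p up to 0.125), or by scaling to library totals (adjusted p = 0.166). The iron exporter ferroportin, SLC40A1, had log2 −0.26 and did not pass (adjusted p = 0.218), but did with the replicate block (adjusted p = 0.0149).

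**Figure D3:**
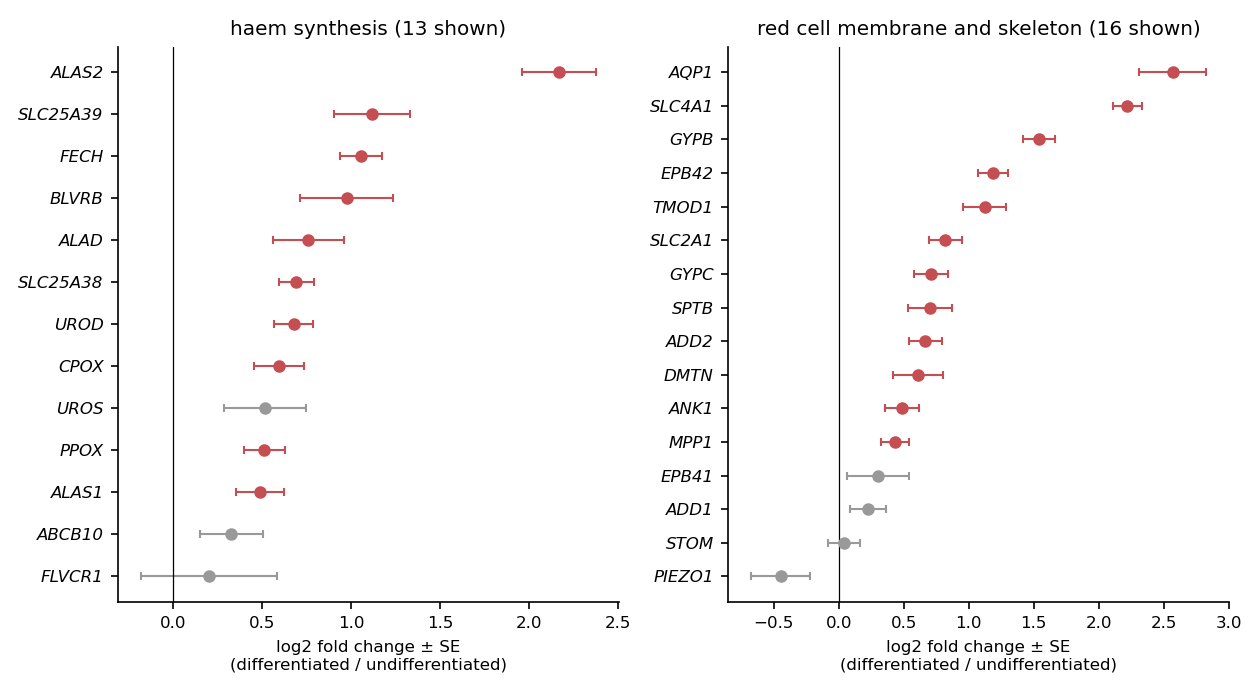
Log2 difference between differentiated and undifferentiated cells (horizontal axis, points with bars of 1 standard error) for 13 of the 14 tested genes of the haem synthesis list and 16 of the 18 of the red cell membrane list. Red marks genes that passed the test, 10 of 13 and 12 of 16 shown, and all the red points lie to the right of 0.

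Of the 18 genes of the red cell membrane and skeleton, 14 rose (77.8%, against 8.12% of all genes), with a median of 0.70. SLC4A1 (chr17:44248390-44268141, minus strand), the anion exchanger band 3, rose from 27.9, 23.8 and 23.7 CPM to 122, 122 and 108 CPM, or 4.66-fold (log2 2.22 ± 0.11, adjusted p = 6.48e-09). The replicates lay close together in both groups. Protein 4.2, EPB42, which fastens band 3 to the skeleton, was at 127, 157 and 161 CPM and then at 343, 348 and 321 CPM (log2 1.18 ± 0.12, adjusted p = 4.32e-06). GYPB, glycophorin B, was at 64.2, 61.9 and 68.97 CPM and then at 185, 173 and 209 CPM (log2 1.54 ± 0.12, adjusted p = 6.21e-07). It belongs to a family of similar genes, between which reads may have been divided unevenly. In the skeleton, beta spectrin SPTB (log2 0.70 ± 0.17), tropomodulin TMOD1 (log2 1.12 ± 0.17), beta adducin ADD2 (log2 0.67 ± 0.12) and ankyrin ANK1 (log2 0.49 ± 0.13) rose. EPB41 (log2 0.30 ± 0.24, adjusted p = 0.443), ADD1, STOM and PIEZO1 did not pass, and PIEZO1, a mechanically gated channel, was lower with the replicate block (log2 −0.44 ± 0.13, adjusted p = 0.0071).

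Blood group genes were more mixed: of 14 tested, 6 rose (42.9%, against 8.12% of all genes) and 1 fell (7.14%, against 7.6%). The median was 0.56. RHCE, which carries Rh antigens, rose from 12.4 ± 0.973 to 26.2 ± 1.15 CPM (log2 1.09 ± 0.13, adjusted p = 4.15e-05) and its partner RHAG from 238, 294 and 261 CPM to 428, 409.8 and 362 CPM (log2 0.60 ± 0.11, adjusted p = 0.0019). ACKR1, the Duffy antigen, was at 16.7, 22.2 and 28.3 CPM and then at 36.8, 44.4 and 51.1 CPM (log2 0.97 ± 0.19, adjusted p = 0.00205). SLC14A1, the urea transporter of the Kidd group, was the gene that fell, from 14.5, 13.5 and 13.5 CPM to 9.498, 7.34 and 9.73 CPM (log2 −0.64 ± 0.17, adjusted p = 0.0168), and its call was lost without differentiated replicate 2 (adjusted p = 0.0783). ERMAP (log2 0.52 ± 0.14) rose but did not pass on leaving out undifferentiated replicate 2 or 3 or differentiated replicate 1 (adjusted p up to 0.101) or by library totals (adjusted p = 0.0959).

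Among enzymes and antioxidants of the red cell, 5 of 13 rose (38.5%, against 8.12% of all genes), with a median of 0.36. With the replicate block 9 rose and 2 fell, where 18.6% and 18.2% of all genes did. CA1, carbonic anhydrase 1, went from 3913, 2393 and 3145 CPM to 8189, 4518 and 6025 CPM (log2 0.99 ± 0.25, adjusted p = 0.0142). Replicate 2 was the lowest and replicate 1 the highest in both groups, and the call was lost without undifferentiated replicate 2 or differentiated replicate 1 (adjusted p up to 0.0678). With the replicate block CA1 passed (adjusted p = 1.4e-33). UCP2, a mitochondrial carrier, went from 1239, 1829 and 1773 CPM to 2912, 3599 and 3465 CPM (log2 1.04 ± 0.16, adjusted p = 0.000294). Peroxiredoxin 2, PRDX2 (log2 0.86 ± 0.17), catalase, CAT (log2 0.79 ± 0.13), and BPGM, which makes the allosteric regulator of haemoglobin 2,3-bisphosphoglycerate (log2 0.73 ± 0.15), rose as well. PGK1 (log2 −0.26) and GPX1 (log2 −0.32) passed as lower only with the replicate block (adjusted p = 2.58e-06 and 2.57e-08).

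Among erythroid transcription factors the rises that passed reached at most 0.98 on the log2 scale. Of 14 tested, 4 rose (28.6%, against 8.12% of all genes) and 1 fell (7.14%, against 7.6%). Under the replicate block 8 rose and 1 fell, where 18.6% and 18.2% of all genes did. The median was 0.53. GATA1, the main factor of the lineage, was at 219.6, 348 and 316 CPM and then at 369, 500.3 and 453 CPM, 1.495-fold (log2 0.58 ± 0.19). The groups did not overlap and each pair of replicate numbers rose, but the adjusted p was 0.0513 without the block and 2.29e-15 with it. KLF1, which drives the adult beta globin gene, was at 1200.0, 1552 and 1490.2 CPM and then at 1865, 2254 and 2175 CPM (log2 0.57 ± 0.13, adjusted p = 0.00838). FOXO3 had the largest rise among the factors that passed, from 25.1, 23.7 and 22.2 CPM to 54.3, 48.7 and 36.9 CPM (log2 0.98 ± 0.16, adjusted p = 0.000484). NFE2, which binds the globin locus control region, rose by log2 0.60 ± 0.15 (adjusted p = 0.0141, with the replicate block 1.19e-16). Its call without the block was lost without undifferentiated replicate 1 or differentiated replicate 2 or 3 (adjusted p up to 0.0712). BCL11A, the repressor of gamma globin, rose from 12.04, 12.4 and 13.5 CPM to 19.8, 19.3 and 17.7 CPM (log2 0.58 ± 0.15, adjusted p = 0.0142), and did not pass without undifferentiated replicate 2 or by library totals (adjusted p up to 0.0558). LMO2, a bridging partner of TAL1 and GATA1, fell from 81.0, 70.2 and 68.3 CPM to 55.5, 50.3 and 54.5 CPM (log2 −0.45 ± 0.11, adjusted p = 0.0091), whereas TAL1 itself (log2 0.29 ± 0.11, adjusted p = 0.0933) passed with the replicate block alone (adjusted p = 0.0171).

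The deepest fall among listed genes with at least 10 CPM was that of a progenitor factor. GATA2 (chr3:128479427-128493201, minus strand) went from 162, 157 and 143 CPM to 23.1, 21.7 and 23.5 CPM, a ratio of 0.148 (log2 −2.76 ± 0.13, adjusted p = 4.6e-09). HHEX, a homeobox factor of blood progenitors, went from 59.6, 73.5 and 74 CPM to 10.2, 11.1 and 12.6 CPM (log2 −2.61 ± 0.15, adjusted p = 1.58e-08). Within each group the 3 libraries of both genes lay close together. MYB, a progenitor factor that keeps erythroid cells dividing, fell more modestly, from 51.7, 33.9 and 37.1 CPM to 29.5, 26.3 and 24.9 CPM (log2 −0.60 ± 0.15, adjusted p = 0.0115), and did not pass without differentiated replicate 3 (adjusted p = 0.055). MYC was at 152, 196 and 171 CPM and then at 160.2, 175 and 157 CPM, with overlapping groups (log2 −0.08 ± 0.12, adjusted p = 0.69). NR3C1, the glucocorticoid receptor, rose from 23.0, 21.02 and 19.6 CPM to 31.2, 32.4 and 30.0 CPM (log2 0.56 ± 0.16, adjusted p = 0.0257), and its call was lost on leaving out any 1 library except undifferentiated replicate 1 (adjusted p up to 0.103) or by library totals (adjusted p = 0.0921). In all, 1 of 8 tested factors rose (12.5%, against 8.12% of all genes) and 3 fell (37.5%, against 7.6%). The median was −0.18, and 7 of the 15 on the list were below the filter.

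The list of genes tied to the switch from foetal to adult globin had 1 call. Of 10 tested, IGF2BP1, an RNA-binding protein of foetal cells, fell, from 46.3, 36.6 and 34.3 CPM to 28.7, 26.4 and 28.9 CPM (log2 −0.48 ± 0.13, adjusted p = 0.0204), and 9 did not pass. The 1 fall was 10% of the tested list, against 7.6% of all genes, and the median was −0.05. With the replicate block 1 rose and 2 fell, where 18.6% and 18.2% of all genes did. The IGF2BP1 call was lost without undifferentiated replicate 1 or differentiated replicate 2 (adjusted p up to 0.0769). LIN28B, an RNA-binding protein of foetal development, was below the level of 3 counts in differentiated replicate 1, at 1.87, 1.46 and 2.06 CPM and then at 0.192, 1.49 and 0.701 CPM (log2 −1.20 ± 0.47, adjusted p = 0.0943, with the replicate block 0.038).

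Receptors moved in both directions. KIT, the SCF receptor, fell from 25.3, 21.7 and 19.4 CPM to 14.5, 10.4 and 9.34 CPM (log2 −0.95 ± 0.20, adjusted p = 0.00341), while EPOR, the EPO receptor, rose from 56.8, 79.2 and 73.2 CPM to 114, 148 and 113 CPM (log2 0.84 ± 0.14, adjusted p = 0.000803). CD36, a fatty acid receptor of erythroid precursors, rose from 271, 272 and 255 CPM to 505, 447 and 400.1 CPM (log2 0.76 ± 0.13, adjusted p = 0.000611). ITGA4, which encodes the surface marker CD49d that is followed during erythroid maturation, was at 90.7, 98.6 and 100.2 CPM and then at 111, 95.2 and 91.9 CPM. Its groups overlapped (log2 0.04 ± 0.11, adjusted p = 0.848), and its sign turned with the scaling and with the libraries left out. These are RNA levels, whereas the study followed the surface protein by flow cytometry over the course of differentiation, mostly at later times. ENG, a co-receptor of the TGF-beta family, fell (log2 −0.50 ± 0.14, adjusted p = 0.023), and did not pass on leaving out replicate 1 or 2 of either group (adjusted p up to 0.105) or in the unpaired fit of the 6 libraries. Of the 9 tested members of this list, 3 rose and 3 fell (33.3% each, against 8.12% and 7.6% of all genes). The median was −0.29, and CD34 was among 5 below the filter.

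Among the targets and regulators of EPO and STAT5 signalling, 3 of 13 rose (23.1%, against 8.12% of all genes) and 1 fell (7.69%, against 7.6%). The median was 0.16, and with the replicate block 5 rose and 1 fell, where 18.6% and 18.2% of all genes did. CISH, a feedback inhibitor, went from 15.7, 13.3 and 14.8 CPM to 33.3, 29.1 and 29.2 CPM (log2 1.07 ± 0.14, adjusted p = 9.1e-05), and ERFE, the hormone erythroferrone by which erythroblasts lower hepcidin, from 15.4, 20.6 and 16.5 CPM to 29.8, 40.2 and 36.2 CPM (log2 1.01 ± 0.19, adjusted p = 0.0019). OSM, an EPO-induced cytokine, rose by log2 0.87 ± 0.20 (adjusted p = 0.00598). STAT5A fell from 50.3, 46.6 and 47.9 CPM to 25.4, 30.2 and 30.6 CPM (log2 −0.75 ± 0.12, adjusted p = 0.000493), whereas STAT5B had log2 −0.28 ± 0.18 (adjusted p = 0.316). EPO was present in both media.

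Dexamethasone, a glucocorticoid, was listed for the expansion medium only. Of 13 tested genes of the glucocorticoid receptor list, 5 rose (38.5%, against 8.12% of all genes) and 8 did not pass. The median was 0.58. By library totals alone, 3 rose. FKBP5, a classical target, was at 207, 233 and 220.2 CPM and then at 283, 265 and 245 CPM (log2 0.27 ± 0.11, adjusted p = 0.106, with the replicate block 0.000156). TSC22D3, which encodes GILZ, rose from 51.8, 55.8 and 58.7 CPM to 98.5, 109.9 and 101 CPM (log2 0.90 ± 0.11, adjusted p = 3.13e-05) and the metallothionein MT2A from 18.4, 19.3 and 26.5 CPM to 44.4, 48.7 and 48.2 CPM (log2 1.13 ± 0.14, adjusted p = 3.7e-05). DUSP1 (log2 0.78 ± 0.20) and TXNIP (log2 0.56 ± 0.15) rose, but lost the call on leaving out single libraries (for DUSP1 undifferentiated replicate 1 or 3 or differentiated replicate 2, for TXNIP undifferentiated replicate 3 or differentiated replicate 2, adjusted p up to 0.0707 and 0.0975), and TXNIP also by library totals (adjusted p = 0.0791). Several of these genes also answer to other signals, so the list does not isolate the receptor.

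Cell cycle genes did not move as one group. CCND1, cyclin D1, fell from 110.3, 99.8 and 113 CPM to 34.9, 34.7 and 34.0 CPM (log2 −1.64 ± 0.10, adjusted p = 3.11e-08) and CCND2, cyclin D2, from 207, 216 and 213 CPM to 114, 117 and 111 CPM (log2 −0.90 ± 0.10, adjusted p = 1.12e-05). CCND3, the D cyclin of late erythroid divisions, had log2 0.13 ± 0.14 (adjusted p = 0.572). CCNE1, cyclin E1, which acts at entry into S phase, rose from 26.7, 35.3 and 34.6 CPM to 48.7, 67.8 and 62.3 CPM (log2 0.88 ± 0.18, adjusted p = 0.00266), as did the CDK4 and CDK6 inhibitor CDKN2C (log2 0.53 ± 0.12, adjusted p = 0.00668). In all, 3 of 17 tested rose (17.6%, against 8.12% of all genes) and 2 fell (11.8%, against 7.6%). With the replicate block 5 rose and 4 fell, where 18.6% and 18.2% of all genes did. The median was 0.08 but −0.05 by library totals.

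The number of replication and mitosis genes that rose depended on the replicate block and on the scaling. Without the block 5 of 19 replication genes rose (26.3%, against 8.12% of all genes), with a median of 0.30. Of 19 mitosis genes 4 rose (21.1%), with a median of 0.23. With the block 11 replication genes rose, and 10 mitosis genes rose and 1 fell, where 18.6% of all genes rose. By library totals 2 replication genes and 1 mitosis gene rose. CCNB2, cyclin B2, rose from 255, 292 and 298 CPM to 515, 455 and 467 CPM (log2 0.77 ± 0.11, adjusted p = 0.000146). MKI67, the common proliferation marker, was at 114, 86.2 and 78.8 CPM and then at 85.8, 88.4 and 87.9 CPM (log2 −0.09 ± 0.13, adjusted p = 0.698). MCM3, MCM7 and PCNA of the replication fork and TPX2, KIF20A and PRC1 of the spindle passed with small differences (log2 0.32, 0.37, 0.35, 0.32, 0.59 and 0.48). Leaving out single libraries ended each of these 6 calls, for MCM3 with any of the 6 libraries, and adjusted p reached 0.145, 0.162, 0.16, 0.156, 0.115 and 0.129 in that order. By library totals none of the 6 passed (adjusted p = 0.252, 0.219, 0.213, 0.255, 0.0907 and 0.103). GINS2 (log2 0.51 ± 0.13) did not pass without undifferentiated replicate 2 or differentiated replicate 1 (adjusted p up to 0.0662).

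Among ribosome biogenesis genes the changes that passed were falls. Of 19 tested, 6 fell (31.6%, against 7.6% of all genes) and 13 did not pass, with a median of −0.35. With the replicate block 12 fell, where 18.2% of all genes did, and by library totals 10 fell with a median of −0.47. NPM1, nucleophosmin, went from 2051, 2126 and 2172 CPM to 1628, 1619 and 1585 CPM (log2 −0.39 ± 0.10, adjusted p = 0.0118), with replicates within a narrow range in each group. NOP16 fell from 571, 758 and 686 CPM to 389, 499 and 448 CPM (log2 −0.59 ± 0.14, adjusted p = 0.00976) and GNL3, nucleostemin, from 134, 137 and 110.5 CPM to 90.0, 90.5 and 75.6 CPM (log2 −0.58 ± 0.13, adjusted p = 0.00562). The other genes that fell were WDR43 and NOLC1, nucleolar proteins, and ODC1, the MYC-driven enzyme of polyamine synthesis (log2 −0.50, −0.43 and −0.43). Of the 6, GNL3 passed in every alternative run, whereas WDR43, NOLC1 and ODC1 were each lost without differentiated replicate 2 or 3 or undifferentiated replicate 1 (adjusted p up to 0.108, 0.113 and 0.0581), NOP16 without undifferentiated replicate 2 or differentiated replicate 1 (0.0553) and NPM1, like ODC1, in the unpaired fit of the 6 libraries (0.0519).

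In organelle clearance and enucleation 2 of 16 genes rose (12.5%, against 8.12% of all genes), with a median of 0.31. With the replicate block 8 rose, where 18.6% of all genes did. BNIP3L, the receptor for removing mitochondria, was at 379, 297 and 338 CPM and then at 533, 391 and 400.0 CPM (log2 0.38 ± 0.16, adjusted p = 0.117, with the block 3.36e-09). Of 16 tested histone genes, 1 rose (6.25%, against 8.12% of all genes) and 3 fell (18.75%, against 7.6%), with a median of −0.08. With the block 3 rose and 5 fell, where 18.6% and 18.2% of all genes did. The linker histone H1-2 fell from 86.9, 90.1 and 89.1 CPM to 47.6, 45.2 and 49.4 CPM (log2 −0.90 ± 0.11, adjusted p = 4.17e-05). Histone genes are similar in sequence, and the replication-dependent ones have little polyadenylated RNA, so their counts are uncertain.

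For cholesterol and fatty acid synthesis 5 of 17 rose (29.4%, against 8.12% of all genes) and 1 fell (5.88%, against 7.6%). The median was 0.20, and with the block 8 rose and 2 fell, where 18.6% and 18.2% of all genes did. INSIG1, the sterol sensor's anchor, rose from 77.3, 93.1 and 92.8 CPM to 189, 200.2 and 182 CPM (log2 1.12 ± 0.12, adjusted p = 1.51e-05) and the synthase HMGCS1 from 20.1, 22.5 and 20.5 CPM to 44.2, 40.6 and 32.0 CPM (log2 0.88 ± 0.15, adjusted p = 0.000544). MSMO1 and NSDHL rose by log2 0.44 and 0.39, calls that leaving out any of undifferentiated replicate 1 or 3 or differentiated replicate 2 ended for both (adjusted p up to 0.0909 and 0.0928), as did scaling by library totals (adjusted p = 0.128 and 0.145) or no filter on low counts.

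In the ATF4 amino acid response 5 of 16 rose (31.25%, against 8.12% of all genes), with a median of 0.57. With the block 9 rose and 1 fell, where 18.6% and 18.2% of all genes did. CHAC1, which degrades glutathione, was at 7.02, 13.0 and 13.8 CPM and then at 26.5, 34.9 and 34.1 CPM (log2 1.48 ± 0.23, adjusted p = 0.000288), and DDIT4, an inhibitor of mTORC1, at 37.4, 68.3 and 55.3 CPM and then at 85.8, 101 and 90.3 CPM (log2 0.78 ± 0.18, adjusted p = 0.00825). ATF4 RNA itself had log2 0.20 ± 0.13 (adjusted p = 0.333, with the block 0.0135). The subunits of PRC1.1, the DOT1L and MLL complexes and PRC2, which the study is about, showed 1 rise among 14 tested (7.14%, against 8.12% of all genes). This was EZH1 (log2 0.83 ± 0.20, adjusted p = 0.00894), which did not pass without undifferentiated replicate 2 or 3 (adjusted p up to 0.0581). With the replicate block 2 rose and 1 fell, where 18.6% and 18.2% of all genes did. The median of this list was 0.00, and −0.12 by library totals. DOT1L was at 13.4, 16.5 and 17.7 CPM and then at 9.79, 20.6 and 16.6 CPM, with log2 −0.02 ± 0.22 (adjusted p = 0.959).

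**Figure D4:**
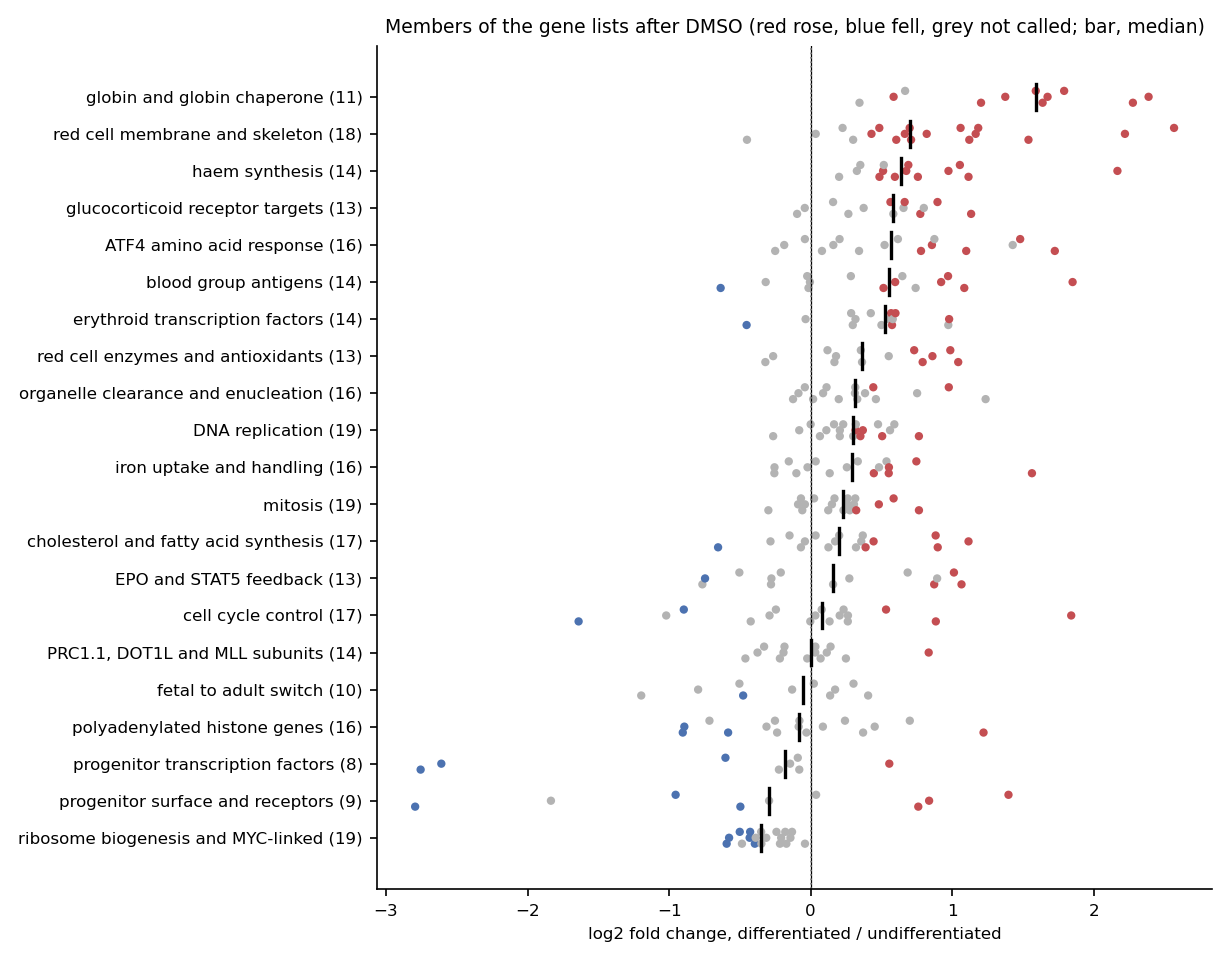
Log2 difference between differentiated and undifferentiated cells (horizontal axis) for every tested member of the 21 gene lists with at least 5 tested members. Each point is a gene, coloured where it passed the test, the bar is the list's median and the dotted line the median of all genes. The globin list lies farthest to the right (median 1.59) and the ribosome biogenesis list farthest to the left (median −0.35).

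Over all lists, 402 genes were looked up and all were present in the table. Of these, 317 passed the filter, of which 92 rose and 25 fell, where 8.12% and 7.6% of all genes did. The other 85 were below the filter, 46 of them at 0 in all 6 libraries. A gene listed at 0 may be one that the counting missed, since genes in wide use such as SQSTM1 and ASNS were among them.

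Markers of mast cells, basophils and eosinophils were the one other-lineage group with a sizeable level. Of the 4 tested, 1 fell (25%, against 7.6% of all genes), and with the replicate block 4 fell, where 18.2% of all genes did. Their summed level was 520 to 1233 CPM in undifferentiated and 211 to 462 CPM in differentiated libraries, and 2 of the 13 were at 0 throughout. PRG2, the major basic protein of eosinophil granules, fell from 149, 304 and 269 CPM to 25.4, 48.4 and 42.4 CPM (log2 −2.63 ± 0.31, adjusted p = 2.43e-05). TPSB2, a mast cell tryptase, was at 219, 558 and 453 CPM and then at 124, 273 and 228 CPM (log2 −0.98 ± 0.35, adjusted p = 0.0667), and its near copy TPSAB1 at 126, 285 and 244 CPM and then at 73.6, 141 and 132 CPM (log2 −0.92 ± 0.31, adjusted p = 0.054). Replicate 1 was the lowest for all 3 genes in both groups, and with the replicate block both tryptases passed (adjusted p = 6.6e-22 and 1.9e-18). Megakaryocyte markers summed to 12.1 to 15.7 CPM and then to 3.93 to 4.26 CPM, with 8 of 13 at 0. Most of this was ITGA2B, which fell from 11.1, 13.7 and 13.3 CPM to 3.26, 3.09 and 3.66 CPM (log2 −1.92 ± 0.21, adjusted p = 1.12e-05). The part of other cells or of mixed-lineage progenitors in the falls of GATA2, HHEX and KIT was not tested.

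Beyond the lists, the largest rise among genes with at least 10 CPM on average was that of KCNN4 (chr19:43766533-43780976, minus strand), the calcium-activated potassium channel of red cells known as the Gardos channel. It went from 2.81, 3 and 3.14 CPM to 24.4, 34.6 and 27.9 CPM, 9.62-fold (log2 3.27 ± 0.20, adjusted p = 1.82e-08). TUBA1A, an alpha tubulin, rose from 27.5, 40.6 and 37.8 CPM to 162, 194 and 180.4 CPM (log2 2.33 ± 0.15, adjusted p = 3.1e-08). The other 5 unlisted genes among the 10 largest rises were SLC7A8, an amino acid transporter, APOC1, an apolipoprotein, PDZK1IP1, C17orf99 and TAPBPL, a chaperone of antigen presentation. Their log2 differences were 2.28, 2.24, 1.997, 1.97 and 1.92. Groups that did not overlap were a condition of this ranking. APOC1, for one, was at 80.2, 74.2 and 86.3 CPM and then at 381, 326 and 429 CPM.

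The deepest fall among genes with at least 10 CPM on average and groups that did not overlap was that of PALM2AKAP2, from 27.2, 18.1 and 16.5 CPM to 1.92, 1.49 and 1.25 CPM (log2 −3.73 ± 0.26, adjusted p = 1.08e-07). RHEX (chr1:206053173-206102449, plus strand), a membrane-bound partner of the EPO receptor, fell from 119.5, 86.8 and 89.1 CPM to 9.98, 7.98 and 8.10 CPM, a ratio of 0.0884 (log2 −3.50 ± 0.20, adjusted p = 1.58e-08). PKM (chr15:72199029-72231819, minus strand), the pyruvate kinase of progenitors and most other tissues, fell from 135, 210.4 and 189 CPM to 14.4, 19.4 and 24.4 CPM (log2 −3.19 ± 0.21, adjusted p = 4.38e-08). PKLR, which encodes the pyruvate kinase of mature red cells, was below the filter. F2RL3, a thrombin receptor, fell from 23.6, 28.8 and 28.7 CPM to 3.55, 2.24 and 2.34 CPM (log2 −3.32 ± 0.20, adjusted p = 1.58e-08). LGALS1, galectin-1, fell from 672, 649 and 795 CPM to 109.7, 115 and 139 CPM (log2 −2.54 ± 0.15, adjusted p = 1.82e-08), and S100A11, a calcium-binding protein, and C12orf75 fell by log2 2.57 ± 0.23 and 2.71 ± 0.15. Genes with overlapping groups were left out of this ranking, so in each of these falls the highest differentiated library had to lie below the lowest undifferentiated one.

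The same step was compared with cells that had been pretreated with SGC0946. There 1301 genes (13.2%) changed, 725 (7.36%) upwards and 576 (5.85%) downwards, and the difference between the 2 responses itself passed for 47 genes (0.477%), 39 (0.396%) with a higher and 8 (0.0812%) with a lower value after SGC0946. With the replicate block 888 passed (9.02%), 387 higher (3.93%) and 501 lower (5.09%), among them all 47. Leaving out 1 library at a time gave 23 to 44, and the count was below 47 by more than 1.5 times without differentiated DMSO replicate 2 (30) or 3 (29), undifferentiated SGC0946 replicate 2 (27) or 3 (23) or differentiated SGC0946 replicate 3 (26). Of the 39, 35 had fallen on differentiation after DMSO, and in 33 of these the estimate after SGC0946 was closer to 0. A gene that fell after DMSO and has a positive difference must lie closer to 0 or above it after SGC0946. This count is therefore not a separate result. Of the 8, 7 had risen after DMSO. The size of the response after DMSO, which all these counts use, is part of the difference tested.

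PKM, which fell by log2 3.19 ± 0.21 after DMSO, went from 241, 337 and 321 CPM to 131, 156 and 152 CPM after SGC0946, a difference between the responses of 2.16 ± 0.27 on the log2 scale (adjusted p = 0.00147). LGALS1 was at 656, 621 and 797 CPM and then at 452, 395 and 542 CPM after SGC0946, so that its fall of 2.54 ± 0.15 after DMSO exceeded that after SGC0946 (difference 1.96 ± 0.21, adjusted p = 0.000616). In differentiated cells both genes were higher in each SGC0946 library than in any DMSO library. CST7, a cysteine protease inhibitor, and ANXA1, annexin A1, differed by 1.98 ± 0.31 and 1.94 ± 0.39 (adjusted p = 0.00658 and 0.0344). NMU, the peptide neuromedin U, was at 1.99, 1.27 and 0.987 CPM and then at 2.40, 1.81 and 2.96 CPM after DMSO, but at 19.2, 11.9 and 20.9 CPM and then at 216, 132 and 182 CPM after SGC0946 (difference 2.54 ± 0.46, adjusted p = 0.0194). Among HHEX, ENG, STAT5A and H1-2 of the lists, the difference was 1.25 ± 0.21, 1.097 ± 0.19, 0.98 ± 0.17 and 0.82 ± 0.16 (adjusted p = 0.00979, 0.015, 0.015 and 0.0299).

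In the other direction, TUBA1A and PGD, an enzyme of the pentose phosphate pathway, rose more after DMSO. TUBA1A was already at 118, 149 and 144 CPM in undifferentiated SGC0946 cells (difference −1.14 ± 0.20, adjusted p = 0.0139). PGD went from 137, 145 and 141 CPM to 306, 345 and 305 CPM after DMSO and from 164, 179.6 and 168 CPM to 217, 197 and 196 CPM after SGC0946 (difference −0.92 ± 0.14, adjusted p = 0.00658). A4GALT, the enzyme of the P blood group antigen, rose by log2 1.48 ± 0.18 after DMSO and had 0.12 ± 0.20 after SGC0946 (difference −1.36 ± 0.27, adjusted p = 0.0328). APOL4 and CBX1, a heterochromatin protein, differed by −0.83 ± 0.17 and −1.02 ± 0.17 (adjusted p = 0.042 and 0.00904), and CBX1 had log2 0.06 ± 0.12 after DMSO.

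No gene of the globin, haem or membrane lists passed this test of the difference without the replicate block, whereas with it 6 of 11, 9 of 14 and 6 of 18 tested genes passed, against 9.02% of all genes. HBB had log2 1.59 ± 0.17 after DMSO and 1.54 ± 0.17 after SGC0946 (difference −0.05 ± 0.23, adjusted p = 0.979). For GATA2 the values were −2.76 ± 0.13 and −2.09 ± 0.14 (difference 0.67 ± 0.18, adjusted p = 0.16, with the replicate block 0.00112). For HBD the adjusted p of the difference of 1.02 ± 0.22 was 0.0533, and 4.84e-19 with the block. ALAS2 had a difference of −0.77 ± 0.28 (adjusted p = 0.373, with the block 2.05e-14) and SLC4A1 one of −0.45 ± 0.15 (adjusted p = 0.318, with the block 0.00548). A difference that did not pass is not evidence that the responses were alike.

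**Figure D5:**
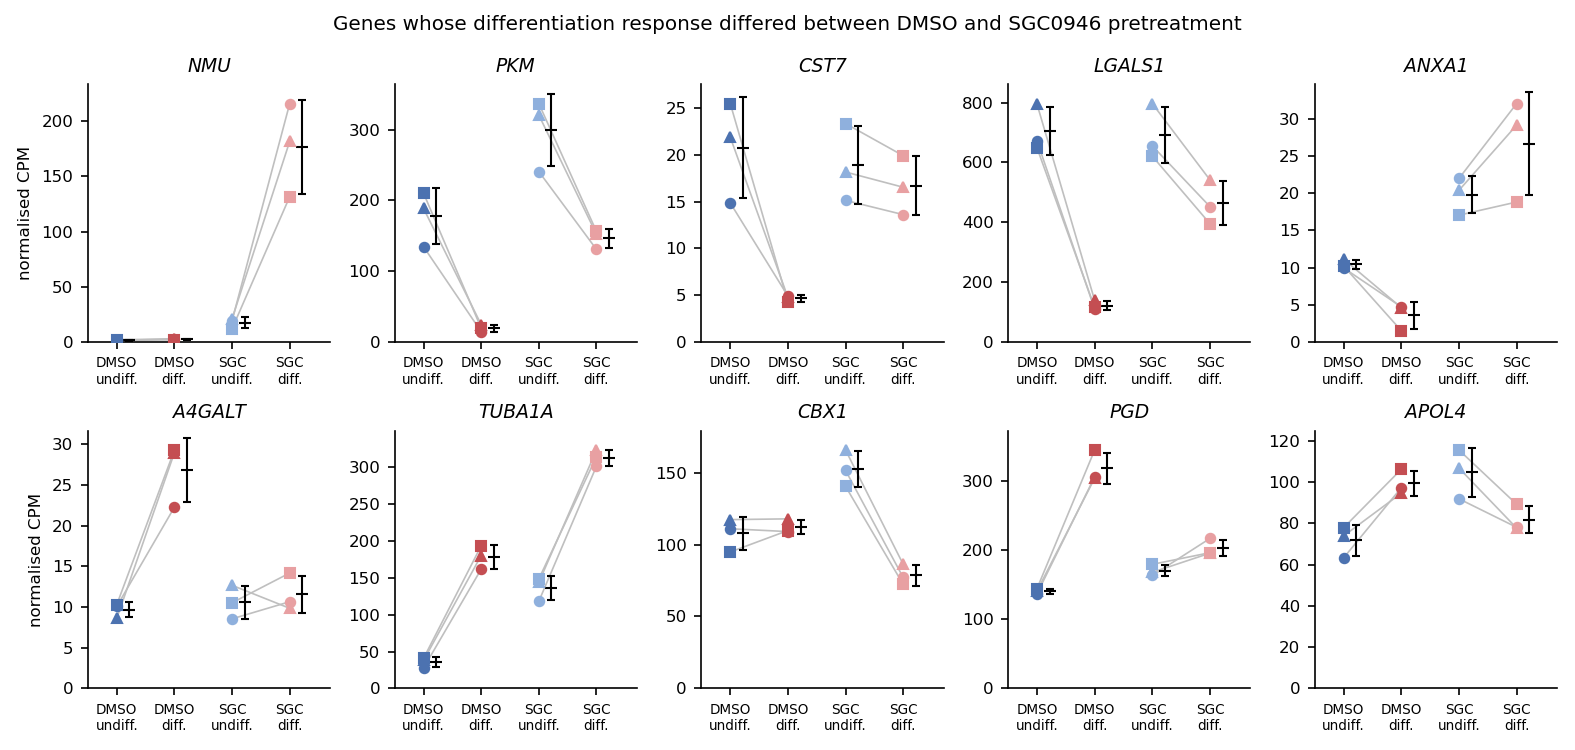
CPM (vertical axes) in undifferentiated and differentiated cells after DMSO or SGC0946, for genes past the test of the difference with at least 10 CPM on average over the 12 libraries. The 5 with the largest positive (NMU, PKM, CST7, LGALS1, ANXA1) and the 5 with the largest negative difference (A4GALT, TUBA1A, CBX1, PGD, APOL4) are shown. PALM2AKAP2 (difference 2.75) was below the CPM limit. Points are libraries and bars the mean ± SD. PKM falls to 19.4 ± 5.03 CPM after DMSO and to 146 ± 13.7 CPM after SGC0946, and PGD rises to 319 ± 23.0 and 203 ± 12.1 CPM.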

How the data were processed

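Polyadenylated RNA of HuDEP-2 cells was measured by 3′ RNA-seq. The methods of the study describe 3′Pool-seq libraries, whereas the extraction protocol of the samples names 2 kits for 3′ libraries without saying which was used. The authors trimmed reads with bbmap and mapped them to GRCh38, the build also given in the labels, with STAR, whose counts per gene they deposited raw, 1 column for each library. The labels name bcl2fastq, STAR and DESeq2. The strand setting is not given in the sources used here, so a gene and its antisense partner cannot be told apart. In 3′ data a gene is seen through reads near its end, so a level depends on how that end is annotated. Groups came from the sample titles, all columns of the table were used, and 1 line that names no gene (at most 0.000183% of counts in the 6 libraries) was left out.

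A gene entered the test if 2 or more of the 12 libraries reached 2 CPM, the filter of the study, which left 9848. One model of 4 groups of 3 was fitted with edgeR 4.0.16 (quasi-likelihood test, TMM, R 4.3.3, limma 3.58.1), without a block, and p-values were adjusted by Benjamini-Hochberg over all genes tested. The contrasts were differentiated minus undifferentiated after DMSO, and the difference between this response and that after SGC0946. The steps were tested on simulated data. Deviations from the group means correlated at 0.33, 0.25 and 0.17 between libraries with the same replicate number, and at −0.25 to 0.03 between different numbers. The numbers were therefore taken to pair the samples. Unless the block is named, calls come from the fit without it, which leaves this pairing unused. The value with the block is given for some genes only. No 2 replicates agreed within sampling noise. Intervals of depth cover counting error only.

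The members and gene lists were chosen with earlier results of these data known. From each list, up to 6 genes past the test with the largest change and at least 10 CPM on average over the 6 libraries were named, with 16 fixed genes. Under the same CPM limit, the 10 largest rises and 10 largest falls with groups that do not overlap were added. For the difference between responses, the 5 largest in each direction with at least 10 CPM on average over the 12 libraries were named. Others were named after their values were seen. Some genes that the rule names, and 1 promoter, are not reported here, while counts over lists include them. Alternatives were DESeq2 1.42.0, other scalings, no filter, a threshold of 0.1, the replicate block, the 6 libraries alone and leaving out each library. Promoters came from GRCh38 with GENCODE canonical transcripts, and windows of 201 of 247 genes higher and 272 of 286 lower by over 1 on the log2 scale could be matched.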

Additional observations from a re-analysis of the deposited data

Results flagged for a closer look

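No group had 4 or more libraries, so single libraries were not tested as outliers. For 22 genes described here the response to differentiation after SGC0946 differed from that after DMSO by the test of the difference itself (edgeR, adjusted over all genes). In 17 the value was higher after SGC0946 than after DMSO. On the log2 scale the differences were 2.75 for PALM2AKAP2, 2.54 for NMU, 2.16 for PKM, 1.98 for CST7, 1.96 for LGALS1 and 1.94 for ANXA1. They were 1.75 for F2RL3, 1.64 for S100A11, 1.57 for FOSL1, 1.497 for TRPV2, 1.49 for VIM and 1.45 for TMSB4X. The smallest of the 17 were 1.27 for PRKCB, 1.25 for HHEX, 1.097 for ENG, 0.98 for STAT5A and 0.82 for H1-2. In the other 5 the value was lower after SGC0946, by −0.83 for APOL4, −0.92 for PGD, −1.02 for CBX1, −1.14 for TUBA1A and −1.36 for A4GALT. Of the 17, NMU alone did not fall after DMSO (log2 0.81 ± 0.38, adjusted p = 0.161), and with the replicate block it rose (adjusted p = 0.0205).

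Some of these genes already differed between the undifferentiated groups. PKM was at 178 ± 39.1 CPM after DMSO and 299.7 ± 51.5 CPM after SGC0946 before differentiation (adjusted p = 0.0311), and TUBA1A at 35.3 ± 6.91 and 137 ± 16.3 CPM (adjusted p = 5.38e-07). VIM, the intermediate filament vimentin, was at 94.0 ± 13.4 and 95.5 ± 7 CPM before differentiation (adjusted p = 0.974) and at 16.6 ± 0.603 and 47.1 ± 6.602 CPM after it. The part of the starting level in the difference between responses was not tested.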

How the results depend on the processing

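With DESeq2, RLE or globin-free scaling, no filter or an adjusted p under 0.1, between 1537 and 2261 genes changed on differentiation, against 1548, and leaving out 1 library gave 1039 to 1390, or 463 to 526 with a change over 1 on the log2 scale. Scaling by library totals gave 1745 with a different split, 511 higher and 1234 lower. Pairing raised the count to 3622 with the replicate block and to 3512 with the block in the 6 libraries alone, which gave 1300 without it. The lists held 192 calls with the block against 117. The difference between responses passed for 47 genes, for 125 with DESeq2, 121 with no filter, 78 at an adjusted p under 0.1 and 888 with the block, and for 23 to 44 on leaving out 1 library. The cause of these shifts was not tested.

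Of the 121 genes named from the lists and by size, 117 passed, and 30 of these lost the call in at least 1 alternative (MCM3 in 11 of 15, MCM7 and TPX2 in 8), none by the block. Signs turned only for 2 genes that had not passed: ITGA4 (log2 0.04) was −0.086 by library totals and −0.037 to 0.090 on leaving out 1 library, below 0 without undifferentiated (−0.017) or differentiated DMSO replicate 1, and MYC (log2 −0.08) was −0.18 to 0.011, above 0 without undifferentiated DMSO replicate 2. Globin shares did not move with the line that names no gene. Depth limits genes near 3 counts, 0.219 to 0.368 CPM.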

Other observations

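The genes ranked 11 to 20 by size were looked at in addition, after their values were seen. Among the rises was GDF15, a secreted factor of erythroblasts, which went from 3.74, 8.10 and 7.35 CPM to 19.6, 29.8 and 21.8 CPM (log2 1.86 ± 0.22, adjusted p = 2.48e-05). FLT3LG, the ligand of the receptor FLT3, went from 4.44, 8.92 and 8.79 CPM to 22.2, 29.8 and 27.8 CPM (log2 1.83 ± 0.20, adjusted p = 1.48e-05). OPTN, an autophagy receptor that was not on the organelle list, rose from 14.0 ± 1.55 to 42.9 ± 7.05 CPM (log2 1.62 ± 0.14, adjusted p = 1.27e-06). SCPEP1, a serine carboxypeptidase, and TMEM86B, a lysoplasmalogenase, rose by log2 1.67 ± 0.14 and 1.59 ± 0.23, and the antisense gene EPS15-AS1, which could hold reads of EPS15, by 1.79 ± 0.20.

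Among the falls were genes of the cytoskeleton. VIM, vimentin, went from 108, 93.7 and 80.8 CPM to 16.3, 17.2 and 16.1 CPM (log2 −2.51 ± 0.14, adjusted p = 1.48e-08) and TMSB4X, thymosin beta 4, which binds actin monomers, from 283, 197 and 286 CPM to 48.7, 38.5 and 48.9 CPM (log2 −2.49 ± 0.21, adjusted p = 1.11e-06). GMFG, a regulator of actin branching, went from 25.8, 20.3 and 23.0 CPM to 4.61, 6.71 and 3.97 CPM (log2 −2.19 ± 0.29, adjusted p = 8.4e-05). PYCARD, the inflammasome adaptor, fell by log2 2.0 ± 0.17, PRKCB, protein kinase C beta, by 1.87 ± 0.18, the zinc transporter SLC39A10 by 1.89 ± 0.25, the AP-1 factor FOSL1 by 2.21 ± 0.21, the channel TRPV2 by 2.05 ± 0.21, CST7 by 2.16 ± 0.23 and PRXL2A by 1.85 ± 0.15. Replicate 1 was the highest library of both groups for PRKCB and SLC39A10.

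The first component of the 6 libraries held 52.6% of the variance and separated the groups, and the second held 20.4% and separated replicate 1 from replicates 2 and 3 in both groups.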
